A study of Mus musculus with 4 samples.

Results

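Growth arrest genes of the p53 and Gadd45 group were followed in IMS32, an immortalized mouse Schwann cell line. Schwann cells are the glia that wrap and support peripheral nerve axons. The group comprised 10 genes, Btg2, Cdkn1a, Mdm2, Gadd45a, Gadd45b, Gadd45g, Plk2, Plk3, Ccng1 and Phlda3. The gene name field of the array held 31087 distinct entries, which include probe identifiers where no gene is named. The 10 genes were found by gene name and were measured by 11 probes of 39418, since Cdkn1a had 2. The genes were chosen from their measured values on these same 4 arrays, so what follows describes them and tests nothing.

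The cells were kept for 1 h in DMEM with 5% FBS under 4 conditions. These were 5 mM glucose with 1 mM pyruvate, [Glc 5 mM/Pyr (+)], 5 mM glucose with 0 mM pyruvate, [Glc 5 mM/Pyr (−)], 15 mM glucose with 1 mM pyruvate, [Glc 15 mM/Pyr (+)], and 15 mM glucose with 0 mM pyruvate, [Glc 15 mM/Pyr (−)]. Each condition had 1 one-colour array, so no difference has a replicate check and no p-value is given. Condition, culture and array cannot be told apart. IMS32 is a single immortalized line, and whether its p53 is intact is not given in the sources used here. In bulk RNA, fewer cells of one kind and less RNA per cell cannot be told apart either.

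p53 is a transcription factor that is held at a low level by the ubiquitin ligase Mdm2 and is stabilized by DNA damage and other stress. It then switches on genes that halt the cell cycle, repair DNA or start apoptosis, among them Mdm2 itself, which closes a feedback loop. The Gadd45 proteins are small stress sensors that bind PCNA, the Cdk1 kinase and the kinase MEKK4, and several of these growth arrest genes are also immediate responders to stress and mitogens without p53. Schwann cells leave the cell cycle as they differentiate and can re-enter it after nerve injury.

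The promoters of 4 members are shown first, to set members with the core of the cAMP response element beside 1 without it, a choice made after the motif search. Btg2, Plk2 and Plk3 were higher in [Glc 15 mM/Pyr (−)], and Gadd45g hardly differed between the 2 arrays at 15 mM glucose. Among the other members, Mdm2 has the core only after its start and differed by −0.04 there, within the spread between spots given below. Gadd45a and Gadd45b lack it and differed by 1.07 and 0.43. Whether the core goes with the differences was not tested. Each line gives the 200 bases before a RefSeq start site in GRCm38.p6, 5′ to 3′ along the gene. Capitals mark TGACG, the core of the cAMP response element, together with CCAAT and TATAAA, on either strand.
Btg2 (chr1:134079156-134079355, minus strand): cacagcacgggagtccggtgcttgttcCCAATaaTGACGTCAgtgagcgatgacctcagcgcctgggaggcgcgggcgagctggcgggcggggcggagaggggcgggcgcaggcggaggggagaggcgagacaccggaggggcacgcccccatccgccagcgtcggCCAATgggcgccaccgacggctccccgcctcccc
Plk2 (chr13:110394844-110395043, plus strand): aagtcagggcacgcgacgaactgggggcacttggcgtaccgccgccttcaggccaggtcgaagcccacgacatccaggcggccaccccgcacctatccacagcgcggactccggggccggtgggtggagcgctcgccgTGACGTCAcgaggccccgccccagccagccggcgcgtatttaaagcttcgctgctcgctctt
Plk3 (chr4:117133964-117134163, minus strand): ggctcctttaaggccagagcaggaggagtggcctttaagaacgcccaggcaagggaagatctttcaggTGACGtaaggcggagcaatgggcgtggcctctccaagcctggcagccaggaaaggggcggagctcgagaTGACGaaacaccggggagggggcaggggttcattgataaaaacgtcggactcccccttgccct
Gadd45g (chr13:51846475-51846674, plus strand): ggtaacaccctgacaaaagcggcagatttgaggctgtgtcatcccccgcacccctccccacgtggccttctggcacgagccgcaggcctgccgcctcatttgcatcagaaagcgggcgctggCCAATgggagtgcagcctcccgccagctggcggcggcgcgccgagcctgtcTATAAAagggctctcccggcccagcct

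The full cAMP response element TGACGTCA, searched on both strands over 250 bases before to 50 after a start, was found in the windows of Btg2, 166 bases before the start, and of Plk2, 62 bases before it. It occurred in 1.79% of all 32851 windows. The core TGACG, which the full element contains, was found in 4 of the 11 member windows, those of Btg2, Plk2, Plk3 and Mdm2, against 20.8% of all windows. Plk3 had it 132 and 63 bases before the start, and Mdm2 only after the start, at base 29. CCAAT was found in 6 member windows, those of Btg2, Mdm2, Gadd45a, Gadd45b, Gadd45g and Ccng1, against 37.4% of all. TATAAA was found for Gadd45b and Gadd45g, 46 and 27 bases before the start, against 13.6% of all. The GC box GGGCGG was found in 8 member windows against 35.7% of all, and the AP-1 site TGANTCA was in 0 against 7.81%. The amino acid response element TGATGNAA was in the window of Gadd45g, against 3.97% of all. The CArG box was in 0 member windows, against 1.63% of all. A match of letters is a description and not a bound site.

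The p53 half-site was searched by its degenerate pattern and was found in 4 member windows, those of Cdkn1a, Mdm2, Gadd45a and Ccng1, against 8.36% of all windows. The Cdkn1a window with matches and that of Gadd45a are shown since Cdkn1a is the textbook p53 target and Gadd45a the member of its family that differed most. Capitals here mark the half-site matches alone.
Cdkn1a (chr17:29090779-29090978, plus strand): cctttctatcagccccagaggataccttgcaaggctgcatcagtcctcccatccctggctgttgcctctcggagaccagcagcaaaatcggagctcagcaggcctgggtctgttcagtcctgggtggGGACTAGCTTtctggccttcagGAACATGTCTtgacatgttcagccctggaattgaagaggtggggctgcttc
Gadd45a (chr6:67037408-67037607, minus strand): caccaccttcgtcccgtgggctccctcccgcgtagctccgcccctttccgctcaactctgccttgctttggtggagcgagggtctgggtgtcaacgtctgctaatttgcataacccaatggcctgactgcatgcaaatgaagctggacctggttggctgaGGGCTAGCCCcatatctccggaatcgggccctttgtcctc

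The match in Gadd45a began 40 bases before the start, and those in Cdkn1a 73 and 51 bases before the upstream of its 2 listed starts. The window of the other Cdkn1a start had no match. The 2 windows were not assigned to the 2 Cdkn1a probes, so the promoter shown need not be that of the brighter signal.

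The scanner intensity was taken as log2 relative to the 75th percentile of each array, which was between 1598 and 1789. Between 28460 and 30325 probes were well above background on an array and 0 spots were saturated. All 11 member probes were well above background on all 4 arrays. The within-array error came from probes printed 10 times and well above background on all arrays. The median SD between spots of a probe, averaged over the 4 arrays, was 0.059 on the log2 scale for 123 such probes of bright signal and 0.071 for 95 of middle signal. For a difference between 2 arrays this gives 0.083 and 0.10, which leaves out the variation between cultures. Member levels are given as intensity before scaling, always in the order in which the 4 conditions were introduced above, and differences as log2 after scaling. A difference without pyruvate is Pyr (−) minus Pyr (+).

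Without pyruvate at 15 mM glucose, 2 of the 11 member probes were at least 2-fold higher, Btg2 and Gadd45a, and Plk3 was the next. Of all 27774 probes well above background on both arrays, 0.954% were at least 2-fold higher and 1.14% at least 2-fold lower. No member was 2-fold lower. At 1.5-fold, 3 member probes were higher, against 2.95% of all probes. Dim probes vary more, and among the 14215 probes at least as bright as the dimmest member probe the shares were 0.162% at 2-fold and 0.633% at 1.5-fold. As the members were picked on these values, nothing is read from that contrast.

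Btg2, an antiproliferative protein that recruits the CCR4-NOT deadenylase to mRNA, had intensities of 861, 1011, 804 and 2247. The last of these, from [Glc 15 mM/Pyr (−)], stood above the other 3, and those with pyruvate lay closer to each other than the spread between spots. The difference without pyruvate was 1.45 ± 0.10 (log2, SD between spots), or 2.74-fold, at 15 mM glucose, against 0.27 at 5 mM. Ranked from the top, Btg2 was at place 92 of 27774 probes in the first comparison and at place 1634 of 29070 in the second. Its probe lies on the minus strand of chromosome 1 in mm9, from 135972094 to 135972153, 2371 bases into the transcript.

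Gadd45a, the DNA damage-inducible member of the Gadd45 family, had intensities of 2721, 3754, 2809 and 6036. All 4 arrays differed by more than the spread between spots, and at each glucose concentration the array without pyruvate was the higher one. The difference was 0.50 ± 0.083, or 1.42-fold, at 5 mM and 1.07 ± 0.083, or 2.10-fold, at 15 mM. It was the member with the largest difference at 5 mM glucose, at place 550 of 29070. Its probe lies on chromosome 6 in mm9, from 66985376 to 66985435.

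Plk3, a polo-like kinase of the stress response, had intensities of 804, 851, 703 and 1205. Its difference was 0.75 ± 0.10, or 1.68-fold, at 15 mM glucose, against 0.12 at 5 mM. Plk2, the related kinase that acts in centriole duplication and is also known as Snk, had 1743, 1772, 1452 and 2036. It differed by 0.46 ± 0.10, or 1.37-fold, at 15 mM and by 0.06 at 5 mM, which is within the spread between spots. Both kinases were highest without pyruvate at 15 mM glucose and lowest with it at that concentration. The gap from the lowest array to [Glc 5 mM/Pyr (+)] was 0.031 for Plk3, within the spread between spots. For Plk2 it was 0.1003, against a spread of 0.1001.

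**Figure D1:**
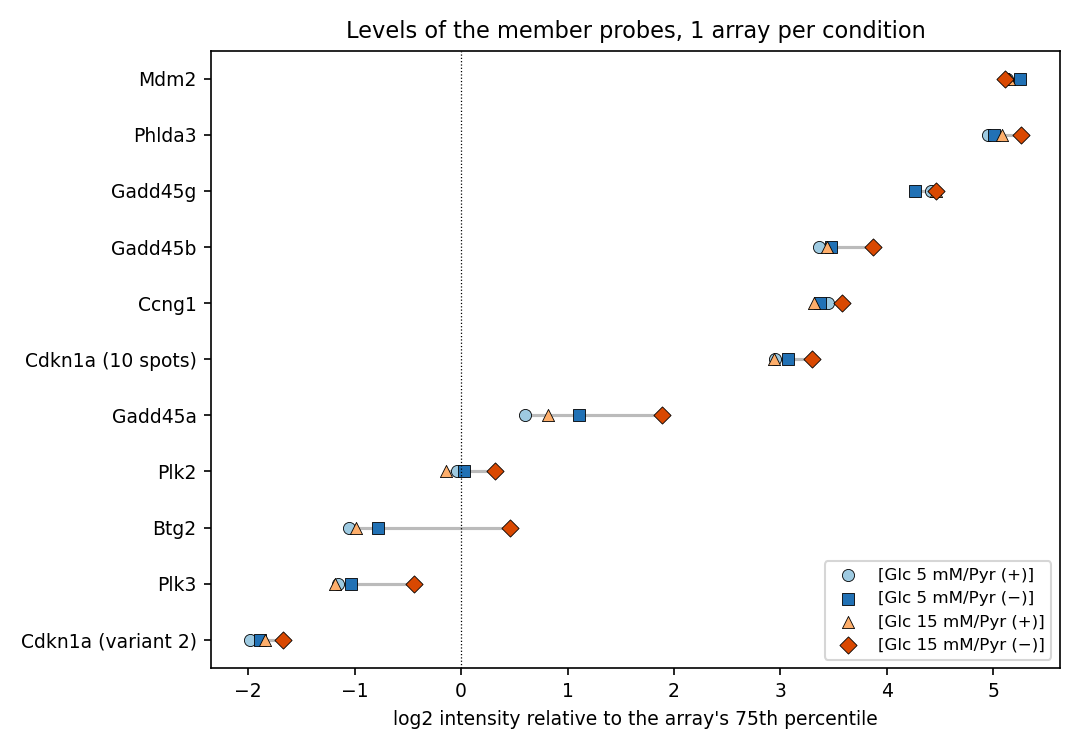
Levels of the 11 member probes on the 4 arrays, as log2 intensity relative to the 75th percentile of the array (x axis), with 1 symbol per array and a grey line over the range. The [Glc 15 mM/Pyr (−)] array is the rightmost for every probe but Mdm2, by only 0.0043 for Gadd45g, and Btg2 and Gadd45a have the widest ranges, 1.52 and 1.28.

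The other Gadd45 genes differed less than Gadd45a. Gadd45b, which responds to TGF-β and NF-κB signalling, had intensities of 18365, 19384, 17309 and 23787, with a difference of 0.43 ± 0.083 at 15 mM glucose, or 1.35-fold, and of 0.12 at 5 mM. Gadd45g, the remaining paralog, had 38184, 33548, 35188 and 36043. It was the member with the lowest difference at 5 mM, −0.15, and that at 15 mM was 0.00, well within the spread between spots. The 3 paralogs were thus spread over 1.07, 0.43 and 0.00 without pyruvate at 15 mM glucose.

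Without pyruvate, Cdkn1a differed less than Btg2 and Gadd45a at both glucose concentrations. Cdkn1a encodes p21, the inhibitor of cyclin-dependent kinases. Its bright probe, printed 10 times on each array, had mean intensities of 13832, 14650, 12234 and 15990. In [Glc 15 mM/Pyr (−)] its 10 spots lay between 3.22 and 3.35 on the log2 scale, and the highest spot of the other 3 arrays was at 3.12, in [Glc 5 mM/Pyr (−)]. The SD over the 10 spots was between 0.033 and 0.052 on each array. The difference of 0.36 at 15 mM glucose, or 1.28-fold, was thus larger than the error within an array, and that at 5 mM glucose was 0.12. The second Cdkn1a probe, assigned in the files to transcript variant 2 alone, had 452, 469, 445 and 513 and differed by 0.17 at 15 mM and 0.09 at 5 mM.

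**Figure D2:**
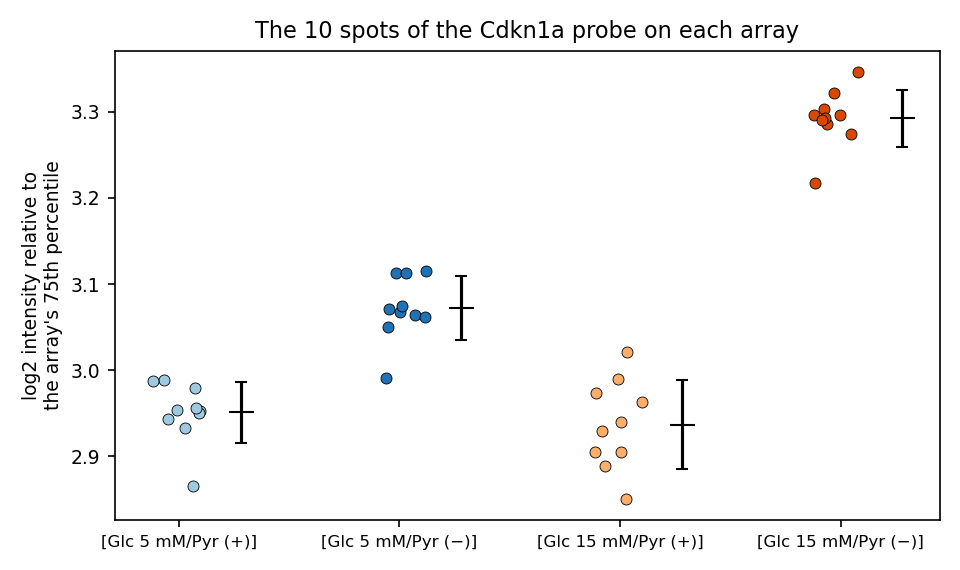
The 10 spots of the bright Cdkn1a probe on each array as log2 intensity relative to the 75th percentile (y axis), with the mean and SD over spots beside them; the y axis does not start at 0. The spots of [Glc 15 mM/Pyr (−)] lie between 3.22 and 3.35, above all spots of the other arrays, and show error within an array only.

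Mdm2, the ligase of the feedback loop, had intensities of 62469, 66215, 56513 and 56248. Its lowest array was [Glc 15 mM/Pyr (−)], the highest array of the other members, although for Gadd45g not beyond the spread between spots, and the difference without pyruvate at 15 mM glucose was −0.04 ± 0.083, within the spread between spots. At 5 mM it was 0.12. Ccng1, or cyclin G1, which brings the phosphatase PP2A to Mdm2, had 19511, 18069, 15927 and 19553 and differed by 0.27 ± 0.083 at 15 mM and by −0.07 at 5 mM. Phlda3, a PH domain protein that competes with Akt for the membrane, had 55226, 55827, 54133 and 62619 and differed by 0.18 ± 0.083 and 0.05.

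Over the 11 probes, the median difference without pyruvate was 0.36 at 15 mM glucose, with 10 higher and 1 lower. The lowest of those higher was Gadd45g at 0.0043, whose sign was negative in 6 of 8 alternatives. All probes had a median of 0.028, and 56.0% of them were higher. At 5 mM glucose the median of the members was 0.12, with 9 higher and 2 lower, beside a median of −0.018 over all probes, of which 44.3% were higher. Scaled to the spike-in controls instead, the median of all probes at 5 mM moved by −0.21 and that of the members to −0.096, so the sign of the smaller differences there depends on the scaling. Gadd45a stayed positive, at 0.29, and Btg2 was at 0.058, within the spread between spots of 0.10. At this concentration 0 members were 2-fold higher or lower, against 0.568% and 0.602% of all 29070 probes. The 2 comparisons use different arrays.

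The pyruvate difference at 15 mM exceeded that at 5 mM by 1.18 for Btg2, 0.63 for Plk3 and 0.57 for Gadd45a. It exceeded it by 0.40 for Plk2, 0.34 for Ccng1 and 0.31 for Gadd45b. The remaining probes lay between −0.16 for Mdm2 and 0.23 for the bright Cdkn1a probe. The median over the member probes was 0.31, beside 0.044 over 27581 probes. This dependence on glucose was not tested, as it rests on 1 array per condition.

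**Figure D3:**
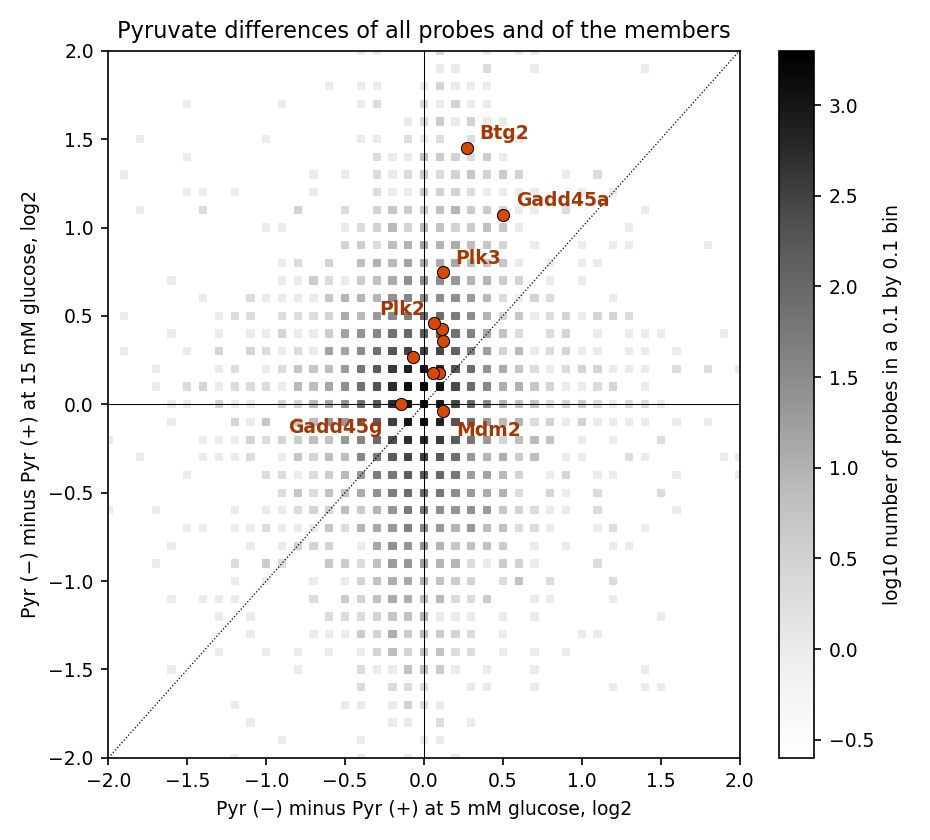
Log2 difference without pyruvate at 5 mM glucose (x axis) and at 15 mM glucose (y axis) for 27581 probes, counted in bins of 0.1 (grey), with the 11 member probes in orange. Btg2, Gadd45a and Plk3 lie above the dotted line of equal differences and Mdm2 below it; 48 probes lie outside the axes.

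With glucose raised in the absence of pyruvate, Btg2 again had the largest difference of the members. This comparison shares the [Glc 15 mM/Pyr (−)] array with that of pyruvate at 15 mM glucose, so the values are not a second look at it. Btg2 was higher by 1.25 ± 0.10, or 2.37-fold, at 15 mM than at 5 mM glucose. Gadd45a was higher by 0.78 ± 0.083, or 1.72-fold, and Plk3 by 0.60 ± 0.10, or 1.51-fold. Gadd45b differed by 0.39 and Plk2 by 0.29, and the others lay between −0.14 for Mdm2 and 0.26 for Phlda3. The median was 0.26, beside 0.034 over all probes. With the spike-in scaling it was 0.014 and Btg2 was at 1.00, as the median of all probes moved by −0.25. At least 2-fold higher was 1 member probe, against 0.951% of all 28192 probes, with 0 members and 1.45% of all probes 2-fold lower. At 1.5-fold, 3 members were higher against 2.75% of all probes. With the spike-in scaling, Gadd45a was at 0.53 and Plk3 at 0.35, both below 1.5-fold, and Plk3 was also just below it with normexp, at 0.55. Among probes at least as bright as the dimmest member, the shares of all probes were 0.127% at 2-fold and 0.492% at 1.5-fold.

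With pyruvate present, the members differed little with glucose. Differences for 15 mM minus 5 mM glucose ran from −0.13 for Ccng1 to 0.21 for Gadd45a, with a median of 0.045 and 7 probes higher. The median over all probes was −0.016. Neither direction held a 2-fold change of a member, against 0.447% of all 28204 probes higher and 0.521% lower. With the spike-in scaling, the median of all probes in this comparison moved by −0.40 and that of the members to −0.36, so the sign of these small differences depends on the scaling. For pyruvate at 15 mM glucose the same change moved the median of all probes by −0.056, and Btg2 and Gadd45a remained at 1.40 and 1.02.

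**Figure D4:**
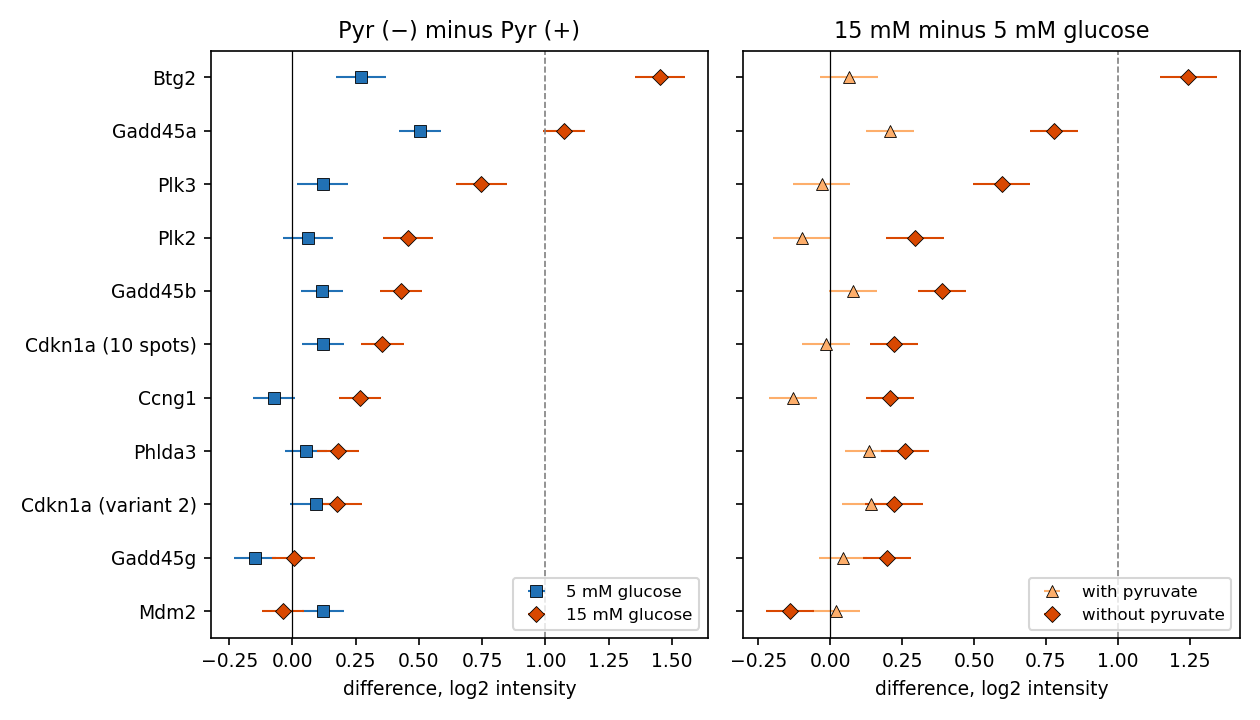
Differences of the 11 member probes in log2 intensity (x axis), without minus with pyruvate at each glucose concentration (left) and 15 mM minus 5 mM glucose with and without pyruvate (right). Bars are the SD of a difference from the spread between spots, 0.083 or 0.10, and the dashed line is 2-fold; Btg2 passes it in both comparisons that use the [Glc 15 mM/Pyr (−)] array, Gadd45a in 1 of them.

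Other genes of the pathway were listed beside the members, with these data already known. The transcript of p53 itself, Trp53, named outside the rule for named genes, had intensities of 798, 805, 710 and 774 and differed by 0.05 and 0.09 without pyruvate at 5 and 15 mM glucose. Of 13 genes for p53 and its regulators, 0 passed 2-fold in any comparison, and the median at 15 mM glucose was −0.039. Cdkn2a, whose Arf product inhibits Mdm2, was the highest at 0.47, and Mdm4, the partner of Mdm2, was the lowest at −0.49. Of 34 other p53 target genes, 32 were measured. Their median was 0.065, and 1 was 2-fold higher, the stress cytokine Gdf15, beside 0.954% of all probes. The dim probe of Gdf15 went from 95.2 with pyruvate to 243 without, a difference of 1.32. At 1.5-fold, 2 were higher, Gdf15 and Sesn2, beside 2.95% of all probes, and 1 was lower. Sesn2, named after its values were seen, had 5820, 8405, 5772 and 9486. It differed by 0.69 at 15 mM and by 0.57 at 5 mM glucose. The lowest was Trp53i11, at −0.64, whose 2 probes gave −1.43 and 0.15.

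The Btg and Tob family, antiproliferative relatives of Btg2 with their deadenylase partners, had 7 listed genes, of which 6 were measured. At 15 mM glucose 0 passed 2-fold and 3 passed 1.5-fold, Tob1 at 0.79, Btg1 at 0.73 and Tob2 at 0.67, of which Btg1 and Tob2 were named after their values were seen. At 1.5-fold, 2.95% of all probes were higher, and 0.633% of those at least as bright as the dimmest member probe. The 2 probes of Btg1 gave 0.28 and 1.18. The intensities of Tob1 were 1200, 1560, 1265 and 2228, highest in [Glc 15 mM/Pyr (−)] as for Btg2. Btg3 was dim, with 38.8, 14.5, 42.3 and 38.9, so that its differences of −1.39 without pyruvate at 5 mM glucose and 1.52 with glucose without pyruvate both came from the low value of [Glc 5 mM/Pyr (−)].

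The genes that carry out the cell cycle did not pass 2-fold in any of the 4 comparisons. Of 6 measured CDK inhibitors besides Cdkn1a, 6 were higher without pyruvate at 15 mM glucose, beside 56.0% of all probes. They ran from 0.11 for Cdkn1c to 0.47 for Cdkn2a, with a median of 0.20. Cdkn1c was dim, and its difference was within the spread between spots of dim probes, 0.22. The 12 measured cyclins and CDKs had a median of 0.075 and ran from −0.12 for Ccnd1 to 0.31 for Cdk7. The 2 probes of Cdk7 gave −0.01 and 0.63, the higher value from the dim probe. The 14 proliferation markers had a median of −0.016, from −0.47 for Cenpf to 0.17 for Pcna. The 7 Gadd45 partners had a median of 0.026, from −0.25 for Map3k4, the MEKK4 kinase, to 0.20 for Mapk14, the p38 kinase. The 2 probes of Mapk14 gave −0.05 and 0.45, the higher value from the weaker probe. Among the other polo-like kinases and their partner, 3 genes were measured, between −0.02 for Plk4 and 0.19 for Bora. Phlda1 differed by 0.07 and Phlda2 was not well above background on any array.

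**Figure D5:**
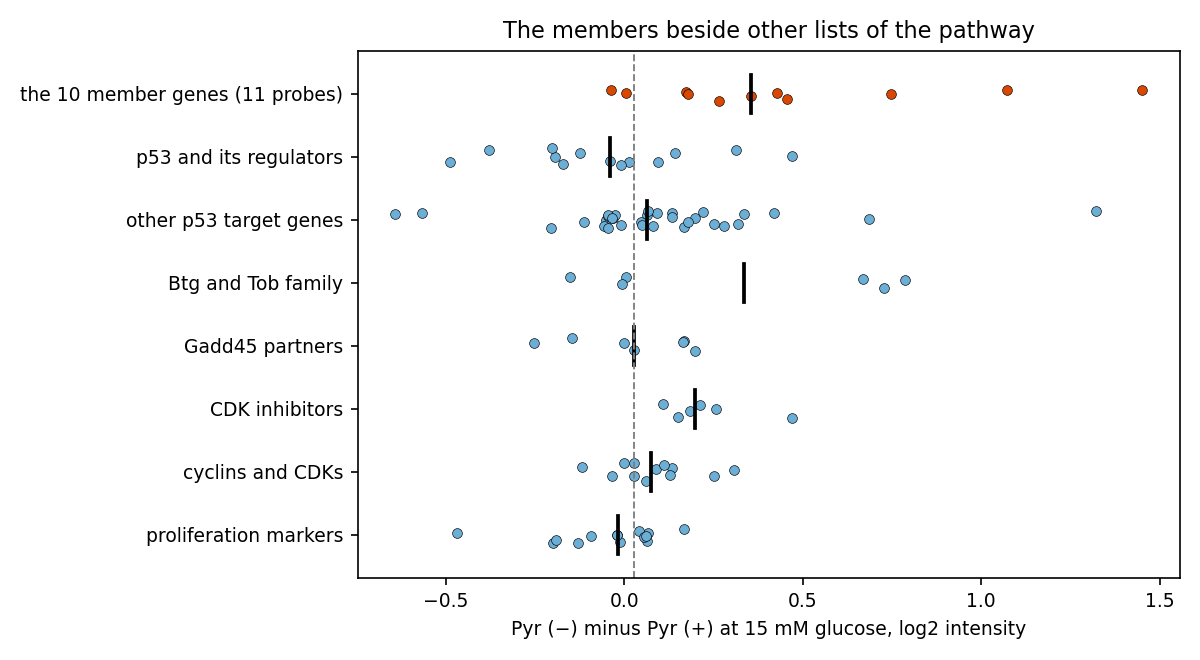
Differences without pyruvate at 15 mM glucose in log2 intensity (x axis) for the member probes (orange) and for the measured genes of 7 other lists (blue), 1 point each, with the median of each list as a black bar and that of all probes, 0.028, as a dashed line. The members and the Btg and Tob family have medians of 0.36 and 0.34, and the proliferation markers one of −0.016.

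The genes most like Btg2, the member with the widest range, were sought among 27570 probes well above background on all arrays, by the Euclidean distance of the 4 log2 values after subtraction of each probe's own mean. They were Gm7710 at a distance of 0.11, LOC102636907 at 0.11, B230369F24Rik at 0.12, Fam46c at 0.12 and Dppa2 at 0.13. Gm7710 had intensities of 554, 635, 510 and 1315, and Fam46c, which encodes a poly(A) polymerase, had 145, 180, 138 and 355. The other 3 were dim, with none above 195 on any array.

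The labelled cell type was checked by its markers. Of the 18 Schwann cell markers, 18 were well above background on all 4 arrays. Ngfr had 17398, 18039, 14823 and 15496, and Sox10 had 5413, 5667, 4837 and 5409. The receptor gene Erbb3 was dim, between 15.6 and 22.2. The summed level of the Schwann cell markers, as a ratio to the 75th percentile, was 64.6, 62.9, 64.7 and 57.8. Of the 8 fibroblast markers 6 were detected, and they summed to between 58.5 and 62.0. Most of this sum was Col1a2, with intensities of 91960, 90986, 87169 and 85784, followed by Col3a1 at 9136 to 11110. Of the macrophage markers, 7 of 7 were detected and summed to between 7.22 and 9.33. Most of this sum was 1 probe of Itgam, with 13155, 11908, 8530 and 7997, while its other 2 probes read between 48.2 and 81.4. The leukocyte gene Ptprc lay between 23.4 and 29.6 and the lysosomal gene Cd68 was at 1200, 1258, 969 and 1817. Endothelial markers, 3 of 5 detected and with Cdh5 not above background, summed to between 2.86 and 3.40. Neuron markers, 4 of 5 on all arrays, summed to between 4.72 and 6.57. With glucose without pyruvate, 2 dim genes were 2-fold higher, Nefl by 1.22 and Rbfox3, on 1 of its 3 probes, by 1.18. Snap25, the brightest of them with 9340, 8354, 6059 and 5470, differed by −0.52 there, Syp by −0.01 and Tubb3 by 0.24. The part of the marker genes in the differences of the growth arrest genes was not tested.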

How the data were processed

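The authors extracted total RNA, labelled it with Cy3, hybridized it to Agilent mouse arrays and scanned them. Agilent Feature Extraction 11.5.1.1, per the submitters' processing notes, gave the deposited processed intensity of each spot, corrected for background and not scaled between arrays. The deposited value table holds a ratio by the authors, spot intensity over a single divisor per array, between 1718.5 and 1930.2. This was found by setting both files side by side for 44397 spots (within 1e-06). The divisor was taken to be a 75th percentile of the array, which was not checked. Over the probes used here that percentile was lower, between 1598 and 1789. The median of the 4 columns of the value table was between 0.0535 and 0.0566. GeneSpring settings are not given in the sources used here.

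Spots that were controls or outliers were dropped, and a probe's remaining spots were averaged. From the log2 of the intensity, the 75th percentile over the 39418 probes with a value on all arrays was subtracted, and differences were formed between arrays. Shares of all probes used those well above background on both arrays. The threshold was 2-fold. The spread between spots was taken from probes printed 10 times, in 3 groups of signal, and times the square root of 2 for a difference. A gene with several probes in a list was given by their mean. No test across genes was made, since each condition has 1 array.

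The members and lists were chosen with earlier results of these data known. Named genes were all members, the genes of other lists at 2-fold in any comparison on probes well above background on both arrays, the highest and lowest gene of a list by the pyruvate difference at 15 mM glucose, and the 5 genes most like the widest-ranging member. Exceptions are named as such in the text, as are marker genes given to check the cell type.

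The alternatives were other scalings, normexp with an offset of 50 in limma 3.58.1 under R 4.3.3, the authors' ratio, other filters, a 1.5-fold threshold and other rules for probes of a gene. Probes are placed in mm9, as in the files. Promoters are from RefSeq, GRCm38.p6, and all 10 genes matched a window by symbol. Other steps used pandas 2.3.3, numpy 2.4.6 and Python 3.11.15. The calculation of the fold count was checked on simulated arrays, with changes beyond 2-fold and noise as low as that of bright probes. This says nothing on the calls in these data.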

Additional observations from a re-analysis of the deposited data

Results flagged for a closer look

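For 2 members the glucose difference had opposite signs with and without pyruvate, each beyond the spread between spots, though only narrowly for Plk2 with pyruvate, at −0.1003 against 0.1001. For Plk2 it was −0.10 with pyruvate and 0.29 without, which is 0.395 apart on the log2 scale. For Ccng1 it was −0.13 with pyruvate and 0.21 without, which is 0.338 apart. Each rests on 1 array per condition, and the difference was not tested. Scaled to the spike-in controls, Ccng1 was at −0.53 and −0.04, both negative, and Plk2 at −0.50 and 0.05. With normexp, Plk2 with pyruvate was at −0.062, within the spread.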

How the results depend on the processing

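The counts of members at 2-fold and the medians were recomputed under 13 alternatives. The 2 members at 2-fold without pyruvate at 15 mM glucose remained under all of them, and at 1.5-fold they were 3. With glucose without pyruvate, the 1.5-fold threshold gave 3 in place of 1, of which the spike-in scaling kept Btg2 alone. Scaling to 8 of the 10 spike-in probes, those well above background, moved the medians of the members to −0.096 for pyruvate at 5 mM glucose. For glucose, it moved them to −0.36 in the presence and 0.014 in the absence of pyruvate, and the median difference between the pyruvate effects to 0.47. It moved the median of all probes by −0.21, −0.40 and −0.25 in these 3 comparisons. With the median of all probes then set to 0, an alternative chosen after seeing the data, the medians were 0.13, 0.06 and 0.23. The 2-fold counts were as before. Both steps shift all probes of an array alike, so the second undoes the first. The values are the main differences less the median of all probes, and they are no check on the spike-in scaling. Of 429 recomputed differences of single probes, 372 moved by less than the spread between spots and 57 by more, 44 of these under the spike-in scaling. None of those at 2-fold changed sign. With 30 recomputed values the sign changed, all of differences of at most 0.22. No paired analysis was possible because each condition has 1 array, and for the same reason no replicate could be left out. All member probes are well above background on all arrays, so the filters on dim probes did not touch them. The rules for several probes of a gene could change the values of Cdkn1a only, and a lower threshold could only add members. These settings could thus not have lost the 2 members at 2-fold.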
